A study of Mus musculus with 6 samples.

Results

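Glycolysis in sorted osteoblasts (OBs) was followed through 10 genes, *Slc2a1*, *Hk1*, *Hk2*, *Pfkp*, *Aldoa*, *Tpi1*, *Gapdh*, *Pgk1*, *Eno1* and *Ldha*. They were taken by symbol from the 23284 genes listed for each sample. All 10 were listed, and all 10 passed the filter of a mean above 0.1 FPKM (fragments scaled to gene length and to library size), which left 19526 genes for testing.

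Glycolysis splits glucose into pyruvate in the cytosol and yields ATP without oxygen. Cells that run it fast commonly reduce the pyruvate to lactate and export it, and OBs are known as cells that take up much glucose and release much of it as lactate. *Slc2a1* encodes GLUT1, the main glucose transporter of OBs. Hexokinases (*Hk1*, *Hk2*) trap glucose in the cell by phosphorylation, and phosphofructokinase (*Pfkp* encodes its platelet type) makes the committed step. Aldolase (*Aldoa*) and triose phosphate isomerase (*Tpi1*) cut the sugar and interconvert the pieces. *Gapdh*, *Pgk1* and *Eno1* carry out later steps in which energy is recovered, and lactate dehydrogenase A (*Ldha*) turns pyruvate into lactate while restoring NAD+. Many of these genes are textbook targets of the hypoxia-inducible factors.

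The cells were ECFP+ OBs from ectopic bone that grew around a collagen sponge carrying BMP-2, collected on day 10 (n = 3) and on day 14 (n = 3) after implantation. All hosts were male *Col2.3*-ECFP mice, 12 to 16 weeks old, in which a fragment of the type I collagen promoter drives cyan fluorescent protein in OBs, so the gate selected cells in which that promoter is active. CD45+ and 7AAD+ cells were gated out. The bone of day 10 had 1 collagenase digestion and that of day 14 had 2, and digestion and day cannot be told apart. The labels call the samples biological replicates and do not say how many mice each one held. Day 14 is the day in the sample titles, whereas the free-text descriptions of its replicates 2 and 3 give day 15 and day 16. These are bulk samples, so fewer cells of a type and less RNA per cell cannot be told apart. Depth was estimated from the smallest steps in the FPKM of low genes at 4528047 to 7754635 reads per sample, and a floor of 3 reads on a kilobase of usable sequence corresponds to 0.387 to 0.663 FPKM, which covers counting error only. *Col1a1*, the main collagen of bone, was listed at 14151 to 34157 FPKM. Since the gate selected on a fragment of the type I collagen promoter, that level is no test of the OB label. A value above 0 is a low bar, met by 16646 to 19698 genes per sample, and all 11 OB markers met it in every sample. The level of these markers also differed with the day. All 11 had a negative log2 fold change with a median of −1.29, and 7 were over 2-fold lower, beside 8.39% of all genes tested. At an unadjusted p under 0.05 from limma 2 were lower, beside 4.4% of all genes tested, and none had an adjusted p under 0.05. *Sp7*, a transcription factor of OB differentiation, averaged 55.0 ± 17.1 and 13.9 ± 12.4 FPKM with no overlap (unadjusted p = 0.00378, limma adjusted p = 0.309), and the markers summed to 43416 to 86731 FPKM on day 10 and to 28626 to 63924 FPKM on day 14. Markers of other cells were also listed. The 12 chondrocyte markers summed to 781 to 1615 FPKM on day 10 and to 175, 232 and 2449 FPKM on day 14, where the highest sum was that of replicate 2. Of these 12, 10 had a negative change, the median was −1.76, and 9 were over 2-fold lower, beside 8.39% of all genes tested. At an unadjusted p under 0.05 from limma 3 were lower, beside 4.4%, and none had an adjusted p under 0.05. The 11 myeloid markers listed summed to 43.1 to 419 FPKM on day 10 and to 20.2 to 666 FPKM on day 14, with *Ptprc*, which encodes CD45, between 0.134 and 2.99 FPKM. The 8 endothelial markers were low but all positive in change, summing to 1.81 to 3.65 FPKM on day 10 and to 4.72 to 8.48 FPKM on day 14. The 8 osteoclast markers summed to 447 to 490 and to 628 to 676 FPKM, most of it *Ctsk*, a protease gene, at 403 to 425 and at 574 to 614 FPKM, while 6 of the 8 had a negative change. The 8 fibroblast and pericyte markers summed to 3622 to 4502 and to 3595 to 5895 FPKM, with 6 positive and 2 negative changes. The days were apart in 1 of the 8 only. This was *Pdgfrb*, a receptor of mesenchymal cells, which averaged 51.6 ± 13.4 and 93.4 ± 14.0 FPKM (limma adjusted p = 0.305). The part of these cells and of the OB markers' levels in the values below was not tested.

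Several of the 10 genes have processed pseudogenes, intronless copies of their mRNA elsewhere in the genome. A 75-base single-end read from a stretch that a copy shares unchanged cannot be assigned by its sequence alone. Every 75-base window, taken each 5 bases along the coding transcript, was searched in the annotated mouse transcripts (GENCODE vM21, mm10). The stretches printed here each lie within 1 coding exon and are read 5′ to 3′ on the gene's strand. For these stretches, pseudogene copies on 1 chromosome were left out, so their counts are lower bounds. The *Gapdh* stretch (chr6:125162874-125162948, minus strand, exon 4) was found without a change in at least 45 annotated pseudogenes, *Gapdh-ps15* among them. The *Eno1* stretch (chr4:150245118-150245192, plus strand, exon 7) was found in at least 3, *Gm4735* among them. They are shown because a read from either of them cannot be assigned to the gene by its sequence.
Gapdh: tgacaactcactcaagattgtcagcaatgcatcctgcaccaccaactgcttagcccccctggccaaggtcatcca
Eno1: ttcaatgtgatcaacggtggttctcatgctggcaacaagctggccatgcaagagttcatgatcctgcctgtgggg

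*Aldoa* and *Tpi1* also have copies, but these differ from the gene in places. Each stretch is set above the nearest of the pseudogene copies kept, to show the bases that separate them. Both stretches were chosen among windows with no identical copy kept, whereas those of *Gapdh* and *Eno1* were chosen for the most identical copies. Over the transcripts, 6 of 295 *Aldoa* windows and 8 of 307 *Tpi1* windows occurred unchanged in another annotated gene. Capitals in the copy mark the bases that differ. The *Aldoa* stretch (chr7:126795990-126796064, minus strand, exon 8) differed from *Gm7556* on chromosome 6 at 1 base, and the *Tpi1* stretch (chr6:124811889-124811963, minus strand, exon 5) from *Tpi-rs11* on chromosome 6 at 2 bases.
Aldoa: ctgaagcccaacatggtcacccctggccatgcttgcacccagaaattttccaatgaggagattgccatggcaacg
Gm7556: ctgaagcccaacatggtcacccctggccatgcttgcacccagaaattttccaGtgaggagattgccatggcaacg
Tpi1: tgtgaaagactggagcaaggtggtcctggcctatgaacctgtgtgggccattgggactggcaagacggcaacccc
Tpi-rs11: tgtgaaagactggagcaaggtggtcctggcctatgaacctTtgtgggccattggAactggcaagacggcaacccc

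Over the whole transcript, 87.9% of the *Gapdh* windows (211 of 240) occurred unchanged in another annotated gene, and the 259 other genes matched within 2 mismatches included 244 pseudogenes. For *Pgk1* the share was 67.5% (237 of 351 windows, 6 other genes) and for *Eno1* 65.2% (255 of 391 windows, 10 other genes). The other members were far more distinct. No window of *Hk1* or *Hk2* matched elsewhere, the share was 0.94% for *Slc2a1*, 2.03% for *Aldoa*, 2.61% for *Tpi1* and 5.44% for *Ldha*, and the 16.6% of *Pfkp* all fell in the overlapping gene *Pitrm1*. Allowing 2 mismatches raised the share to 24.4% for *Aldoa*, 21.8% for *Tpi1* and 39.8% for *Ldha*.

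The 3 members with the largest shares were also the 3 with the lowest listed levels. *Gapdh*, among the most abundant mRNAs of most cells, was listed with 0.398, 0.177 and 0.125 FPKM on day 10, then 0.213, 0.329 and 0.414 FPKM on day 14. These values correspond to about 1 to 3 reads per sample, at or under the floor of 3 reads in every library, and its fitted log2 fold change is no measure of a change, though the counts and medians over the 10 members include it. *Pgk1* was listed at 3.88 to 7.28 FPKM, about 34.4 to 82.2 reads, and *Eno1* at 0 to 7.88 FPKM, about 0 to 100.2 reads. *Tpi1* and *Aldoa*, whose enzymes act in the same stretch of the pathway, were listed at means of 152 and 301 FPKM over the 6 samples. *Pgam1*, the mutase between *Pgk1* and *Eno1*, had 40.8% of its windows elsewhere and a mean of 10.1 FPKM, whereas pyruvate kinase *Pkm* had 19.7% and a mean of 220 FPKM. Across the genome, 18588 genes were matched to a coding transcript. The 512 with at least 90% of windows shared within 2 mismatches had a median of 0.0376 FPKM. Of these 512, 85.4% had a mean under 1 FPKM. The 988 genes with 50% to 90% shared had a median of 0.439 FPKM, with 60.9% under 1 FPKM. For the 14122 genes with under 10% shared these were 1.63 FPKM and 44.3%. Within 2 mismatches, *Gapdh* (88.3%), *Eno1* (85.2%) and *Pgk1* (67.8%) fell in the range of 50% to 90%, as did *Pkm* at 60.0%. How reads with several matching places were handled is not given in the sources used here, and its part in the low values of *Gapdh*, *Pgk1* and *Eno1* was not tested. Of the 259 symbols that share windows with *Gapdh*, 12 were listed by the files. Among them *Gm12070*, a copy with 170 identical windows, was listed at 0.152 FPKM at most, and *Vmn2r60*, with 28, at 0.433 FPKM at most. No gene that shares windows with *Pgk1* or *Eno1* was listed under its annotated symbol.

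**Figure D1:**
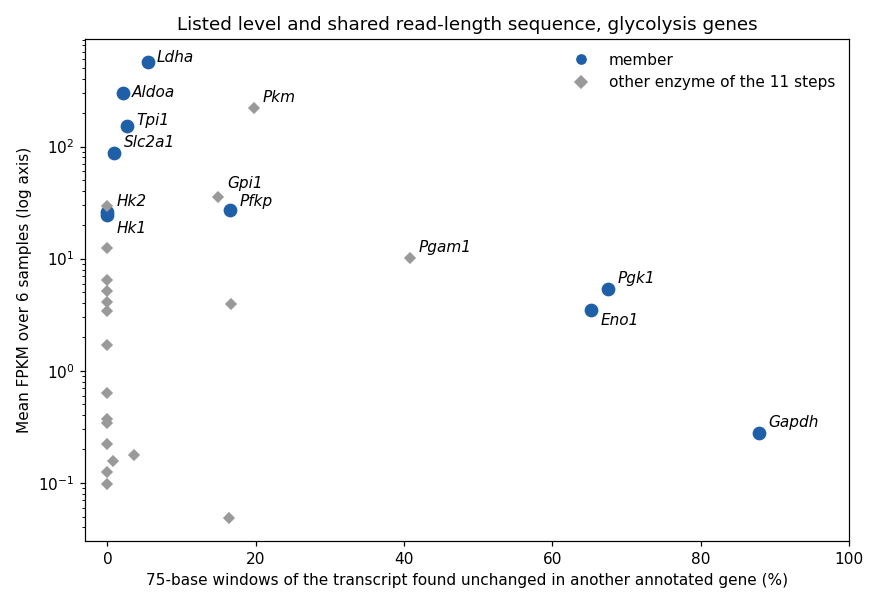
Each point is a glycolysis gene, a member in blue or another enzyme of the 11 steps in grey, with the share of its 75-base windows found unchanged in another annotated gene (x axis, %) and its mean FPKM over the 6 samples (y axis, log scale). *Gapdh*, *Pgk1* and *Eno1*, at shares of 65.2% to 87.9%, sit at 0.276 to 5.36 FPKM, and the 7 other members, at shares of 0% to 16.6%, sit between 24.5 and 571 FPKM.

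Among the members as listed, *Ldha* was the highest in every sample, at 458 to 633 FPKM, and its mean ranked 83 of all genes on day 10 and 91 on day 14. *Aldoa* followed at 261 to 377 FPKM and *Tpi1* at 130 to 202 FPKM, and the ranges of these 3 genes did not overlap. *Slc2a1* came next with a mean of 87.6 FPKM and was above *Pfkp* in 6 of 6 samples. *Pfkp* (27.0 FPKM), *Hk2* (26.2 FPKM) and *Hk1* (24.5 FPKM) did not differ in level beyond their spread, since each neighbour led in 3 of 6 samples. The 10 genes summed to 995, 1155 and 1253 FPKM on day 10 and to 1102, 1278 and 1411 FPKM on day 14, or 0.213% to 0.307% of a sample's FPKM. *Ldha* alone made up 41.6% to 51.7% of that sum, and *Ldha*, *Aldoa* and *Tpi1* together 83.1% to 91.0%.

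**Figure D2:**
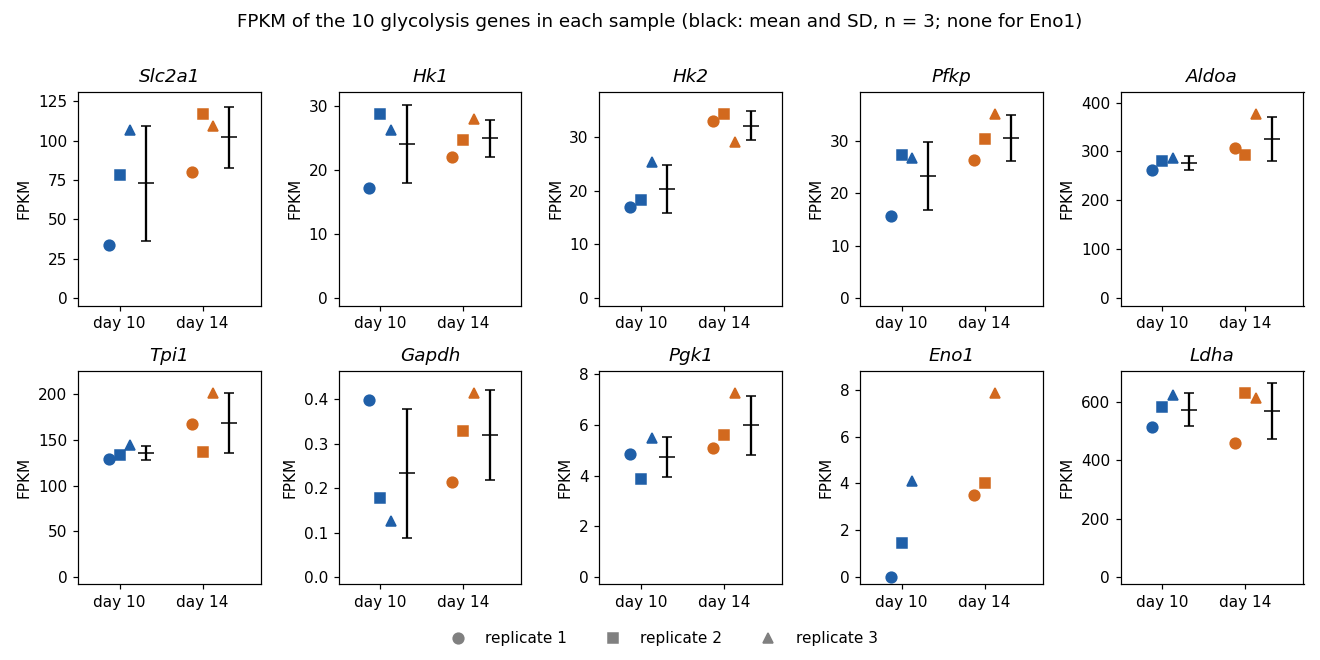
FPKM of each member (y axis, linear, a scale of its own in each panel) in the 3 samples of day 10 (blue) and of day 14 (orange), with the replicate as marker and the mean and SD in black. The days are apart in *Hk2* and *Aldoa* only, and replicate 1 of day 10 is the lowest sample in 7 of the 10 genes, *Gapdh*, *Pgk1* and *Ldha* being the exceptions.

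No member passed the test between day 10 and day 14. With limma on log2(FPKM + 0.1), 0 of 10 had an adjusted p under 0.05, against a background of 0.0154% (3 of 19526 genes), and the smallest adjusted p was that of *Hk2*. At an unadjusted p under 0.05, 1 member was higher on day 14, again *Hk2*, beside 5.6% of all genes, and none was lower, beside 4.4%. The days did not overlap in 2 members, *Hk2* and *Aldoa*, both higher on day 14, where 7.59% of all genes tested and 15.7% of the 4605 genes with a mean of at least 10 FPKM did so. None was lower without overlap, beside 6.67%. In simulated data of the same design, none of 200 genes changed by 1 on the log2 scale was called (0%). At a change of 2, 35% were called, and at a change of 3, 61.5%, with 1, 3 and 8 false calls at the 3 sizes. The 200 genes were drawn from genes of all levels and simulated independently of each other. These shares are therefore no estimate for the members.

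Glucose uptake and phosphorylation open the pathway, and values stand in the order of replicates 1, 2 and 3 here and below. *Slc2a1* (chr4:119108711-119137983, plus strand) measured 34.1, 78.1 and 106.5 FPKM on day 10, then 80.4, 117.2 and 109.4 FPKM on day 14. The low value of replicate 1 set the wide spread of day 10, and the days overlapped. The means were 72.9 ± 36.5 and 102 ± 19.4 FPKM (SD, n = 3 each), with a log2 fold change of 0.62 (standard error, SE, 0.38, limma adjusted p = 0.644), and without that replicate the change was 0.15. The list for glucose uptake held 13 genes of 2 transporter families, 11 *Slc2a* and 2 *Slc5a* genes. Of their summed FPKM, *Slc2a1* took 33.8% to 63.0% on day 10 and 55.2% to 66.3% on day 14. *Slc2a3*, the high-affinity transporter GLUT3, had means of 14.7 ± 5.53 and 24.7 ± 6.01 FPKM (limma adjusted p = 0.459), and *Slc2a10*, which encodes GLUT10, 28.6 ± 5.44 and 21.2 ± 1.82 FPKM (limma adjusted p = 0.486).

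*Hk2* (chr6:82725025-82774454, minus strand), the inducible hexokinase of muscle and fat, measured 17.0, 18.4 and 25.4 FPKM on day 10, then 32.9, 34.3 and 29.2 FPKM on day 14. Every day 14 sample lay above every day 10 sample. The means were 20.3 ± 4.50 and 32.1 ± 2.68 FPKM, a ratio on the fitted scale of 1.60 (log2 fold change 0.68, SE 0.19, unadjusted p = 0.00581 and limma adjusted p = 0.319). The two-sided exact permutation test gave p = 0.1, the smallest that 3 samples against 3 allow. Over 15 alternatives, the log2 fold change stayed between 0.57 and 0.85 and the unadjusted p was under 0.05 in 14, while limma's adjusted p ran from 0.234 to 0.988.

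*Hk1* (chr10:62268855-62379908, minus strand), the housekeeping hexokinase, measured 17.2, 28.7 and 26.3 FPKM on day 10, then 22.1, 24.7 and 27.9 FPKM on day 14. Its days overlapped throughout, with means of 24.1 ± 6.07 and 24.9 ± 2.93 FPKM and a log2 fold change of 0.08 (SE 0.22, limma adjusted p = 0.953). The sign turned without replicate 1 of day 10, to −0.15. Set against each other within a sample, *Hk2* over *Hk1* was 0.990, 0.639 and 0.967 on day 10 and 1.49, 1.39 and 1.04 on day 14. The ratio was therefore below 1 in all 3 samples of day 10 and above 1 in all 3 of day 14. As a share of the 5 hexokinases listed, *Hk2* had 45.3 ± 6.09% on day 10 and 55.7 ± 4.65% on day 14, a difference of 10.4 percentage points (two-sided exact permutation test, p = 0.1, adjusted over 9 shares 0.225). *Hk1* took nearly all of the remainder, at 53.3 ± 5.80% and 43.1 ± 4.58%.

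**Figure D3:**
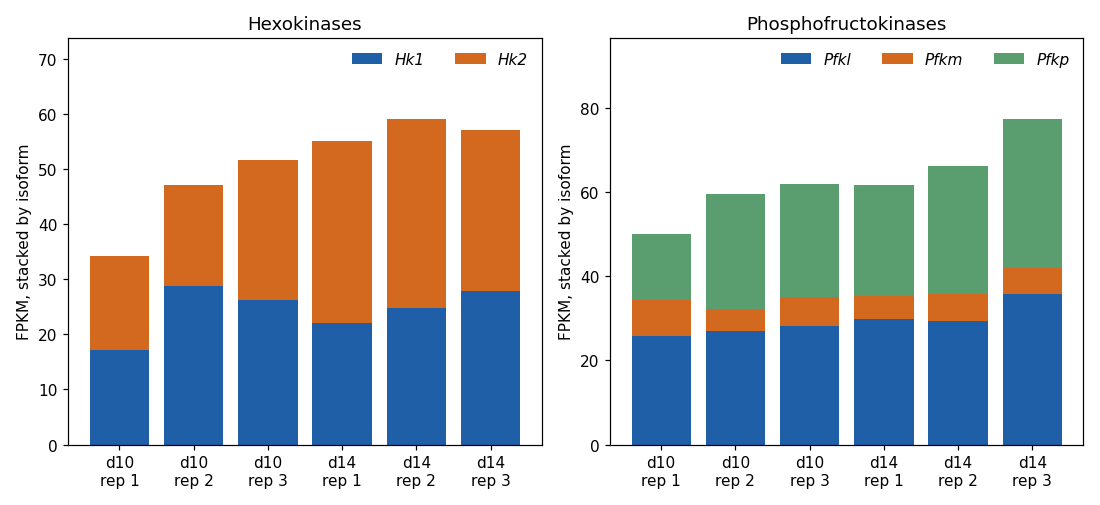
Stacked FPKM of the hexokinases (left) and phosphofructokinases (right) with a mean of at least 1 FPKM, 1 bar per sample (d10 and d14: day 10 and day 14; rep: replicate). *Hk2* makes up 38.3% to 49.1% of the hexokinase FPKM on day 10 and 50.4% to 58.9% on day 14, while the share of *Pfkp* overlaps between the days.

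*Pfkp* (chr13:6579768-6648777, minus strand) measured 15.8, 27.3 and 26.8 FPKM on day 10, then 26.3, 30.3 and 35.2 FPKM on day 14. Replicate 1 of day 10 stood apart at the low end, and without it the log2 fold change was 0.17, while the other samples of the days overlapped (log2 fold change 0.43, SE 0.24, limma adjusted p = 0.602). *Pitrm1*, a mitochondrial peptidase gene that overlaps it, went from 18.4 FPKM in the lowest to 31.2 FPKM in the highest sample, with replicate 1 of day 10 lowest and replicate 3 of day 14 highest, as in *Pfkp*, and without strand the reads of the shared stretch cannot be told apart. *Pfkl*, the liver type, was as abundant as *Pfkp*, with means of 26.9 ± 1.27 and 31.6 ± 3.51 FPKM and no overlap between the days (limma adjusted p = 0.677). *Pfkm*, the muscle type, had means of 6.91 and 6.08 FPKM, and *Pfkp* made up 40.2 ± 7.61% and 44.8 ± 1.75% of the step (exact permutation p = 0.6).

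*Aldoa* (chr7:126795234-126800751, minus strand) measured 261, 281 and 288 FPKM on day 10, then 306, 292 and 377 FPKM on day 14. The days did not overlap, though the gap between the highest day 10 and the lowest day 14 sample was small beside the range within day 14. The means were 277 ± 13.8 and 325 ± 45.5 FPKM (log2 fold change 0.22, SE 0.17, limma adjusted p = 0.741; exact permutation p = 0.1). Without replicate 3 of day 14 the log2 fold change was 0.11. *Aldoa* supplied 98.9% to 99.8% of the aldolase FPKM in every sample. *Aldoc*, the brain type, measured 1.78, 2.43 and 3.09 FPKM on day 10, then 1.61, 0.564 and 0.757 FPKM on day 14. Its days did not overlap in the opposite direction (log2 fold change −1.32, limma adjusted p = 0.391). *Aldoart1*, a retrogene with 47 windows within 2 mismatches of *Aldoa*, was listed at 6.86 to 11.8 FPKM, and *Aldoart2*, with 15 such windows, at 1.99 to 4.45 FPKM.

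*Tpi1* (chr6:124810586-124814296, minus strand) measured 130, 134 and 145 FPKM on day 10, then 167, 137 and 202 FPKM on day 14. Replicate 2 of day 14 lay within the day 10 samples, and the others lay above them (136 ± 7.78 and 169 ± 32.5 FPKM, log2 fold change 0.29, limma adjusted p = 0.643). *Gpi1*, the isomerase between hexokinase and phosphofructokinase, had means of 31.3 ± 4.10 and 39.1 ± 6.36 FPKM (log2 fold change 0.32, limma adjusted p = 0.602).

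For *Pgk1* and *Eno1* the values rest on few reads. *Pgk1* (chrX:106187100-106203699, plus strand) measured 4.87, 3.88 and 5.48 FPKM on day 10, then 5.08, 5.60 and 7.28 FPKM on day 14 (log2 fold change 0.33, limma adjusted p = 0.709). *Eno1* (chr4:150236721-150248879, plus strand) was listed with 0, 1.45 and 4.09 FPKM on day 10, then 3.49, 4.03 and 7.88 FPKM on day 14. It was the only member past 2-fold (log2 fold change 2.50, SE 1.17, limma adjusted p = 0.531), where 5.25% of all genes were over 2-fold higher and 8.39% over 2-fold lower. That size rests on the sample listed at 0, and without it the log2 fold change was 0.94. It also depends on the 0.1 FPKM added before taking logs. With 1 added the log2 fold change was 1.33, and with 0.01 added it was 3.62. *Eno3*, the muscle enolase, measured 5.63, 3.24 and 5.62 FPKM on day 10, then 1.95, 2.95 and 1.15 FPKM on day 14 (log2 fold change −1.27, limma adjusted p = 0.359). *Eno2*, the neuronal type, had means of 4.47 and 5.77 FPKM. *Gapdh* (chr6:125161715-125166467, minus strand) was given above. *Pgam1* was lower in every day 10 sample than in any of day 14, with means of 8.61 ± 1.86 and 11.5 ± 0.494 FPKM (limma adjusted p = 0.521), and *Pgam2*, the muscle mutase, had means of 5.60 and 2.55 FPKM (limma adjusted p = 0.528). *Pkm*, which the files list as *Pkm2*, was nearly level at 219 ± 10.5 and 222 ± 14.6 FPKM (log2 fold change 0.02, limma adjusted p = 0.991).

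*Ldha* (chr7:46841475-46855627, plus strand) measured 515, 582 and 626 FPKM on day 10, then 458, 633 and 615 FPKM on day 14. The lowest and the highest sample were both of day 14. It was the only member with a negative log2 fold change, −0.02 (SE 0.21, limma adjusted p = 0.989), with means of 574 ± 56.1 and 569 ± 96.2 FPKM, and the sign turned without replicate 1 of day 14, to 0.12. *Ldha* supplied 98.7% to 99.6% of the lactate dehydrogenase FPKM, and *Ldhb*, the isoform that favours the way back to pyruvate, had means of 4.50 and 3.35 FPKM. Of the 6 genes listed for lactate export, 3 had a positive and 3 a negative change, and 2 were higher in every day 14 sample. Among all genes tested 7.59% were so, and among those with a mean of at least 10 FPKM 15.7%. *Slc16a1*, the lactate transporter MCT1, measured 18.2, 27.6 and 25.1 FPKM on day 10, then 29.7, 37.6 and 44.1 FPKM on day 14 (log2 fold change 0.65, limma adjusted p = 0.376). *Emb*, which encodes its partner embigin, measured 32.4, 38.3 and 46.3 FPKM on day 10, then 72.6, 49.0 and 64.6 FPKM on day 14 (log2 fold change 0.66, limma adjusted p = 0.349). *Slc16a3*, the exporter MCT4, had means of 61.1 ± 11.8 and 65.9 ± 17.5 FPKM, and *Bsg*, which encodes the partner basigin, 440 and 422 FPKM.

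**Figure D4:**
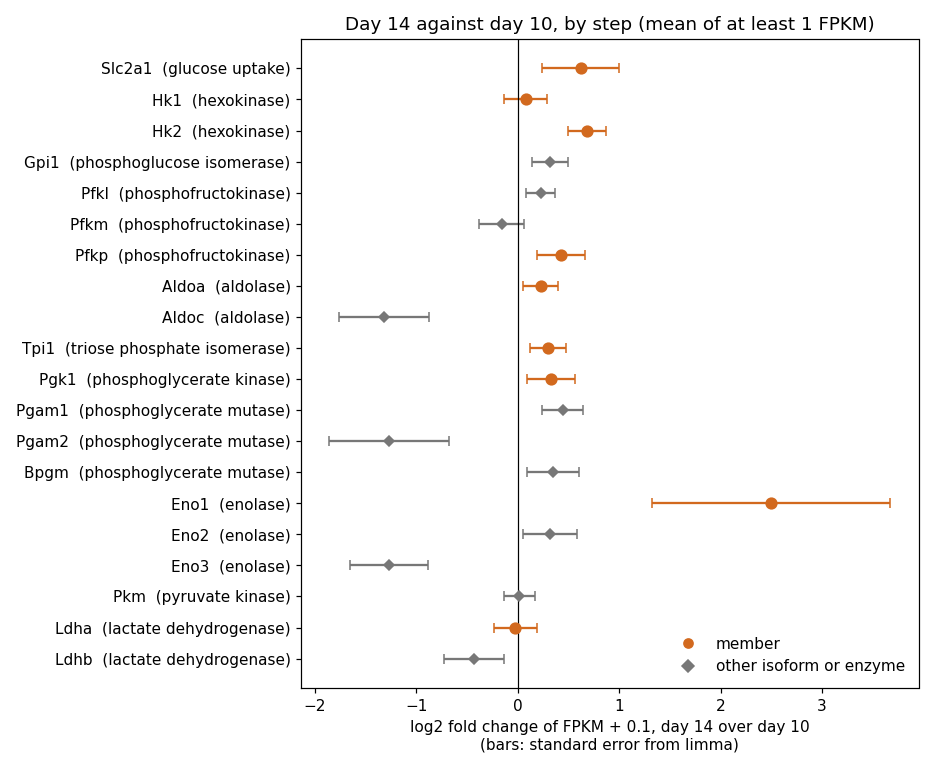
Log2 fold change of FPKM + 0.1, day 14 over day 10, for the members (orange) and the other isoforms and enzymes (grey) with a mean of at least 1 FPKM, in the order of the pathway, with bars for limma's standard error. *Hk2* at 0.68 has the smallest adjusted p of the genes drawn (0.319), *Eno1* at 2.50 has the widest bar, and *Aldoc*, *Pgam2* and *Eno3* lie between −1.32 and −1.27.

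Over the list, 9 of 10 members had a positive log2 fold change, where 46.5% of all genes tested and 54.7% of those with a mean of at least 10 FPKM did, and the median was 0.36 against −0.04 for all genes tested. Without replicate 1 of day 10 that median was 0.22, and without replicate 3 of day 14 it was 0.20. With *Gapdh*, *Pgk1* and *Eno1* left out, a choice made after seeing the data, 6 of the other 7 were positive and their median was 0.29. The 27 enzymes tested for the 11 steps from hexokinase to lactate dehydrogenase, the members included, had 19 positive and 8 negative changes with a median of 0.22. At an unadjusted p under 0.05, 1 was higher and 2 were lower, beside 5.6% and 4.4% of all genes tested.

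The samples of a day differed as much as the days did. Replicate 1 of day 10 was the lowest of the 6 samples in 7 of the 10 members, whereas it was the lowest in 22.5% of all genes tested and in 27.3% of those with a mean of at least 10 FPKM. Replicate 3 of day 14 was the highest in 6 of the 10, against 16.8% and 30.3%. With *Gapdh*, *Pgk1* and *Eno1* left out, replicate 1 of day 10 was the lowest in 6 of the other 7. Replicates 2 and 3 of day 14 were then each the highest in 3 of the 7. Among genes with a mean of at least 10 FPKM these 2 samples were the highest in 22.1% and 30.3%. The mean of the 10 standardised members was −1.09, −0.35 and 0.06 in replicates 1, 2 and 3 of day 10 and −0.07, 0.38 and 1.07 in those of day 14, so replicate 3 of day 10 and replicate 1 of day 14 stood side by side. The 5 genes with the highest Pearson r to this mean, over the 6 samples and among 4598 genes that averaged 10 FPKM or more, were *Txn1* (r = 0.998), *Rnf2* (0.995), *Gpi1* (0.991), *Rtn4* (0.991) and *Trip10* (0.990). With 6 points that share their libraries, 268 genes had an r over 0.9, and the values are a description. *Txn1*, which encodes the redox protein thioredoxin, ran from 69.5 FPKM in replicate 1 of day 10 to 143 FPKM in replicate 3 of day 14.

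The rest of the pathway was examined through lists. None of the 95 genes tested outside the members passed an adjusted p of 0.05 with limma, and their median log2 fold change was −0.03. At an unadjusted p under 0.05, 4 of the 95 were higher and 9 lower, beside 5.6% and 4.4% of all genes tested. *Pck2*, which encodes the mitochondrial enzyme that makes phosphoenolpyruvate, the reverse of the glycolytic direction, had the smallest adjusted p of them. It measured 33.0, 27.1 and 19.5 FPKM on day 10, then 9.31, 15.0 and 9.30 FPKM on day 14, with no overlap (log2 fold change −1.24, SE 0.26, limma adjusted p = 0.292). All 6 genes tested for gluconeogenesis had a negative change, with a median of −0.62, and 1 of them an unadjusted p under 0.05. Of these 6, 4 had a mean under 1 FPKM, near the floor, and the others were *Pck2* and *G6pc3*. Among all genes tested, 46.5% had a positive change and 4.4% were lower at an unadjusted p under 0.05. Of the 17 genes of the tricarboxylic acid cycle, which burns pyruvate in mitochondria, 15 had a negative change with a median of −0.18, and 3 were lower at an unadjusted p under 0.05. *Suclg1*, a subunit of succinyl-CoA ligase, had means of 46.7 ± 3.19 and 34.4 ± 5.28 FPKM (limma adjusted p = 0.415), and *Idh2*, the mitochondrial isocitrate dehydrogenase, 103 and 72.7 FPKM (limma adjusted p = 0.444). Replicate 1 of day 14 was the lowest sample in 14 of these 17 genes, where it was the lowest in 33.9% of the genes with a mean of at least 10 FPKM.

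Of the 14 genes for pyruvate entry into mitochondria, 8 had a positive and 6 a negative change, and none had an unadjusted p under 0.05. *Mpc1*, a subunit of the pyruvate carrier, had means of 5.74 and 7.51 FPKM, and *Pdk3*, a kinase that switches off pyruvate dehydrogenase, 31.9 and 28.0 FPKM. The 5 regulators that set fructose 2,6-bisphosphate, the activator of phosphofructokinase, were split into 2 positive and 3 negative, with *Pfkfb3* at 14.6 and 13.1 FPKM. Of the 7 pentose phosphate genes 3 were positive, and *Pgls*, the lactonase, had means of 68.0 ± 4.62 and 53.7 ± 1.53 FPKM with no overlap (limma adjusted p = 0.456), while *G6pdx*, the entry enzyme, was at 13.6 and 14.0 FPKM. Of the 12 glycogen genes 10 were positive with a median of 0.29, *Ugp2*, which makes UDP-glucose, among them at 34.0 and 50.1 FPKM (limma adjusted p = 0.495).

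Hypoxia-responsive genes outside glycolysis were set beside the members, since many members are known targets of the same factors. Of 17 tested, 11 had a positive change with a median of 0.24. At an unadjusted p under 0.05, 3 were higher and 2 lower, beside 5.6% and 4.4% of all genes tested, so the list was divided. *Ndrg1*, a stress-induced gene, measured 65.3, 87.7 and 112 FPKM on day 10, then 132, 154 and 210 FPKM on day 14 (log2 fold change 0.91, SE 0.25, limma adjusted p = 0.319). *Bnip3l*, a mitophagy receptor, had means of 11.6 and 15.5 FPKM with no overlap (limma adjusted p = 0.438). In the other direction, the collagen prolyl hydroxylases *P4ha1* (130 and 94.1 FPKM, limma adjusted p = 0.398) and *P4ha2* (248 and 185 FPKM, limma adjusted p = 0.462) were lower in every day 14 sample. Replicate 1 of day 10 was the lowest in 11 of the 17, as it was in 7 of the 10 members. Of the 12 regulators of glycolytic genes, 7 had a positive and 5 a negative change. *Epas1*, which encodes HIF-2α, had means of 8.70 ± 3.95 and 16.3 ± 5.92 FPKM (limma adjusted p = 0.454), *Hif1a* 124 ± 25.4 and 169 ± 34.9 FPKM (limma adjusted p = 0.548) and *Myc* 77.9 and 102 FPKM (limma adjusted p = 0.508). In the other direction, *Mtor*, the nutrient-sensing kinase, was lower in every day 14 sample with means of 2.62 ± 0.721 and 1.48 ± 0.310 FPKM (log2 fold change −0.76, limma adjusted p = 0.513), and *Foxo1* averaged 6.24 and 5.16 FPKM (limma adjusted p = 0.789). Of 12 dissociation and stress genes, 4 were higher on day 14 at an unadjusted p under 0.05, beside 5.6% of all genes tested. Their summed level was 4251 to 5788 FPKM on day 10 and 4736 to 5934 FPKM on day 14. Their part in the values of the members was not tested.

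The promoters of the members were searched for ACGTG, the core of the hypoxia response element, on both strands of the 250 bases before each annotated start (RefSeq, GRCm38.p6). The letters overlap the E-box CACGTG, which other factors bind. Of the 16 promoters annotated for the 10 members, 6 held it, in 5 members, and it occurred in 16.6% of the 32851 promoters of the genome. With GCGTG counted as well, 13 of the 16 promoters had a match, beside 38.6% of all promoters. Promoters of 1 gene can overlap, as 2 of *Aldoa*, which share their match, and 2 of *Eno1* do, so these promoters are not separate counts. The promoters of *Hk2* (chr6:82774455-82774704, minus strand) and *Ldha* (chr7:46845554-46845803, plus strand) are shown as the member with the smallest adjusted p and the member with the highest level, with matches on either strand in capitals. *Hk2* held 2 and *Ldha* 5, where a CACGTG counts on each strand. A match is a description of the letters and not of binding.
Hk2: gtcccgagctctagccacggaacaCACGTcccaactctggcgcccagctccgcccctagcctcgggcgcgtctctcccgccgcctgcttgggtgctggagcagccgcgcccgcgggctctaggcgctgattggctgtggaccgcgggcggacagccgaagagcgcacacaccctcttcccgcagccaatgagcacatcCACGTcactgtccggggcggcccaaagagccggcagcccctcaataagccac
Ldha: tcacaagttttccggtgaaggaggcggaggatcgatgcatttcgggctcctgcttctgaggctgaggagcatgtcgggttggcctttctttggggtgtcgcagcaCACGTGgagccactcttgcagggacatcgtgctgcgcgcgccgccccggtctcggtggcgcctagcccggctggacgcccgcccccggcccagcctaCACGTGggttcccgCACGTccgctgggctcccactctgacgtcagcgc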

How the data were processed

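RNA-seq of ECFP+ OBs from 3 samples of day 10 and 3 of day 14 was used. Per the submitters' processing notes and the methods, the authors used TopHat2 2.0.13, Bowtie2 2.2.3 and SAMtools 0.1.19 to map single-end reads of 75 bases to mm10, and computed FPKM with Cufflinks 2.2.1. The authors deposited 1 FPKM value per gene and sample, with 23284 genes in each file. FPKM divides by gene length and by library size, so counting error no longer shows in the values. The annotation used, the strandedness and the treatment of multi-mapped reads are not given in the sources used here. In 1 file, 25 symbols had been turned into dates and were restored by position. No pair of files was identical.

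All values were tested on log2(FPKM + 0.1) with limma 3.58.1 in R 4.3.3 (eBayes with a mean-variance trend) over the 19526 genes with a mean above 0.1 FPKM, with the day as the only factor and Benjamini-Hochberg adjustment over all of them. The filter used the mean over all 6 samples, and the fold changes of low genes on this scale depend on the added 0.1. A change was called at an adjusted p under 0.05. Shares within a step and single genes were compared with two-sided exact permutation tests in scipy 1.17.1 (Python 3.11.15), whose smallest p is 0.1. Reads were estimated from 1977 genes at values of 0.3 FPKM or less, taking fragments as 230 bases long, and 75.2% to 79.9% of those values came out within 0.1 of a whole read. Since the rest did not, no count test was run. Shared windows were found with bwa 0.7.19, allowing 2 mismatches, each 5 bases in pathway genes and each 50 bases in the genome-wide comparison.

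The named genes were taken from the members, the isoforms of their steps, listed copies of a member, up to 2 genes per direction with the smallest unadjusted p in each other list, and the 5 genes most like the members. *Slc16a3*, *Hif1a* and individual markers were named in addition, after their values were seen. The members and the lists were chosen with earlier results of these data known. Of 243 list entries, 241 matched a listed symbol. The fit was tested on simulated data. The labels number the replicates alike on both days, but after centring on the day means the same-numbered pairs correlated at 0.06, −0.01 and 0.09 across genes, so the numbers were not taken to pair the samples. Alternatives were other pseudocounts (1 and 0.01), other filters, 2 other scalings, no mean-variance trend, the replicate number as a block, replicate 1 of day 14 alone against day 10, and leaving out each sample. Leaving out 3 members was added after seeing the data.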

Additional observations from a re-analysis of the deposited data

How the results depend on the processing

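No member had an adjusted p under 0.05 from limma under any of the 15 alternatives, of which 1 sets replicate 1 of day 14 alone against day 10 and so takes all its spread from day 10. The median log2 fold change of the members, 0.36 as reported, ran from 0.20 to 0.48 with 1 sample left out, and *Hk2*, *Slc2a1*, *Pfkp*, *Aldoa*, *Tpi1*, *Pgk1* and *Eno1* kept a positive change. The count of members with an unadjusted p under 0.05, 1 as reported beside 1954 of 19526 genes, was 2 with a pseudocount of 1, beside 1895. It was between 1 and 3 when 1 sample was left out. The 3 came without replicate 3 of day 10, where 1972 of 19509 genes had such a p. With the replicate number as a block it was 4 (*Slc2a1*, *Hk2*, *Pfkp* and *Eno1*), beside 2130 of 19526 genes. Limma's adjusted p with the block was 0.291 for *Hk2*, and no member was called. Same-numbered samples correlated at most at 0.09, so this fit gives no pairing by design. The count over 2-fold, 1 as reported, was 0 without replicate 1 of day 10 or without *Gapdh*, *Pgk1* and *Eno1* (range 0 to 1 over the samples left out). The count of members whose days did not overlap, 2 as reported, ran from 2 to 6, with 6 without replicate 3 of day 10 and 5 without replicate 1 of day 14, where fewer samples make separation easier. The share over all genes was not computed with a sample left out, so these counts have no background to be set against. Across the genome, 76 genes were called without replicate 2 of day 14, the sample with the most chondrocyte marker FPKM, and no member was among them. Some signs turned. With replicate 1 of day 14 alone, the log2 fold change was −0.0905 for *Hk1* and −0.0053 for *Gapdh*, whose value on so few reads is no measure of a change. When 1 sample was left out it ran from −0.15 to 0.22 for *Hk1* and from −0.11 to 0.12 for *Ldha*. The difference in the share of a step, in percentage points, ran from −10.4 to 24.4 for *Gapdh*, −3.61 to 5.24 for *Pgk1* and −0.111 to 0.349 for *Ldha*. The cause was not tested. Few reads limit *Gapdh*, at about 3 or fewer in every sample, and *Eno1* where it was listed at 0.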
